A study of Saccharomyces cerevisiae with 12 samples.

Results

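The quantity described here is the strain difference in the response to SLAM, a low-ammonium medium in which diploid budding yeast can grow as pseudohyphae. It is the change between SLAM and YPM in MLY132, which lacks GPA2, minus the same change in the wild type MLY61, on the log2 scale. All 12 arrays of the study entered it, 3 for each combination of strain and medium. It was taken for 5656 genes, each read by 1 of the 9335 probe sets of the Affymetrix Yeast S98 array. A positive value means a more positive SLAM response in MLY132.

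MLY132 is an a/alpha diploid with both copies of GPA2 replaced (delta gpa2::G418/delta gpa2::G418), and MLY61 is the a/alpha diploid with GPA2 intact. Both strains are homozygous for ura3-52, so neither has a working URA3 gene. The SLAM groups were grown in YPM until the OD600 reached 1.0, filtered, and held for 2 h at 30 °C in 0.17% yeast nitrogen base free of ammonium sulfate and amino acids, 50 µM ammonium sulfate and 2% maltose. The YPM groups were collected from rich maltose medium at the same OD600, without transfer. The 4 groups, each from 3 cultures, were therefore MLY132 in SLAM, MLY132 in YPM, MLY61 in SLAM and MLY61 in YPM. Each genotype is a single strain, and the media differ in more than nitrogen. The titles number the MLY132 arrays from 2 to 12 and the MLY61 arrays from 14 to 24. What those numbers mark is not stated, and strain and number cannot be told apart. Replicate numbers used below follow that order within each group and link no arrays between groups.

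Gpa2 is a G protein alpha subunit that works with the cell-surface receptor Gpr1 and, with Ras, stimulates adenylate cyclase. The cAMP produced releases the catalytic subunits of protein kinase A from their inhibitor Bcy1. In yeast, protein kinase A and TORC1 favour synthesis of ribosomes and hold back genes of stress defence, storage carbohydrates and respiration, and the same kinase takes part in pseudohyphal growth.

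GPA2 read 5.42, 5.14 and 5.49 in MLY132 in SLAM, 5.60, 5.20 and 5.48 in MLY132 in YPM, 11.10, 11.00 and 10.56 in MLY61 in SLAM, and 10.27, 9.70 and 10.00 in MLY61 in YPM. The labels of all 12 arrays thus matched the level of the deleted gene. Its highest MLY132 reading, 5.60, is used below as a background reading. The median distance of an array's genes from the mean of its fellow replicates was 0.53 (log2) for MLY61 SLAM replicate 2, 0.42 for MLY132 SLAM replicate 3, and from 0.17 to 0.37 for the other 10. MLY132 YPM replicate 3, at 0.29, stood apart in particular lists. In the iron uptake genes MLY132 YPM replicate 3 stood at -1.74 from its group's mean, and the other 2 at 0.80 and 0.94. The 17 mating-type genes listed as silent in a/alpha cells averaged between 5.76 and 6.59 over the 12 arrays, above the background reading on each. By their own means, 8 of them were at or below that reading. The list mean was 5.98 in YPM and 6.33 in SLAM in MLY132, and 5.93 and 6.38 in MLY61. Of 8 meiosis markers, 5 were at or below the background reading. Of all 5656 genes, 5215 were above it.

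Every gene called in both strains moved in the same direction in SLAM, and no gene's strain difference passed the test. In MLY132, 757 genes (13.4%) rose and 835 (14.8%) fell in SLAM, 1592 in all (28.1% of 5656), at an adjusted p below 0.05 by limma with Benjamini-Hochberg adjustment. In MLY61, 296 (5.23%) rose and 415 (7.34%) fell, 711 in all (12.6%). These shares of all genes are the background for the counts of rising and falling genes in the lists below. The MLY61 count rested on single arrays, with 62 without MLY61 YPM replicate 2 and 1414 without MLY61 SLAM replicate 2, and the MLY132 count ran from 945 to 1955, and a gap between the strains in such counts, here or in a list below, was not tested as a difference of response. Both strains called 588 genes, which are 36.9% of the MLY132 calls and 82.7% of the MLY61 calls, with 238 rising in both, 350 falling in both and 0 in opposite directions. The difference of the responses was called for 0 genes (0%) by limma. At an unadjusted p below 0.05 it had 228 genes (4.03%), of which 98 (1.73%) lay above 0 and 130 (2.3%) below. Of the 1004 genes called in MLY132 alone, 118 were among these 228. Of the 123 called in MLY61 alone, 12 were among them.

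**Figure D1:**
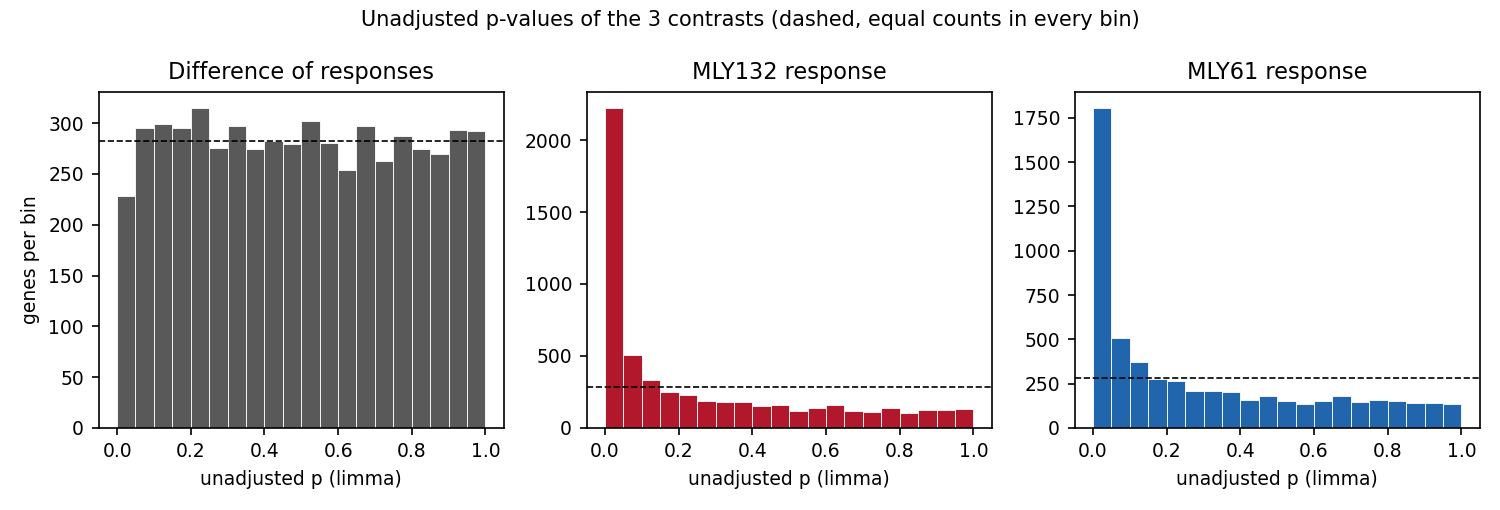
Histograms of unadjusted p-values from limma for the difference of responses (left), the MLY132 response (middle) and the MLY61 response (right), in 20 bins, with genes per bin on the vertical axis. The first bin holds 228 genes for the difference, under the 282.8 that equal counts would put in every bin (dashed), against 2223 for MLY132 and 1806 for MLY61.

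The difference was estimated with a median standard error of 0.41 (log2) and a median 95% interval reaching 0.88 to either side. Its median over all genes was 0.04, and 141 genes lay above 1 and 219 below -1. Across genes the 2 responses correlated with Pearson r = 0.851 and Spearman rho = 0.831 (5656 genes, which are not independent replicates). The orthogonal slope of the MLY132 response on the MLY61 response was 1.34. Among the 588 genes called in both strains, the change was larger in MLY132 for 406 (69.0%). It was larger there in 248 of the 350 shared falls and in 158 of the 238 shared rises. These counts are a description, since replicate spread was greater in MLY61 SLAM (median gene SD 0.387) than in MLY132 SLAM (0.340).

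**Figure D2:**
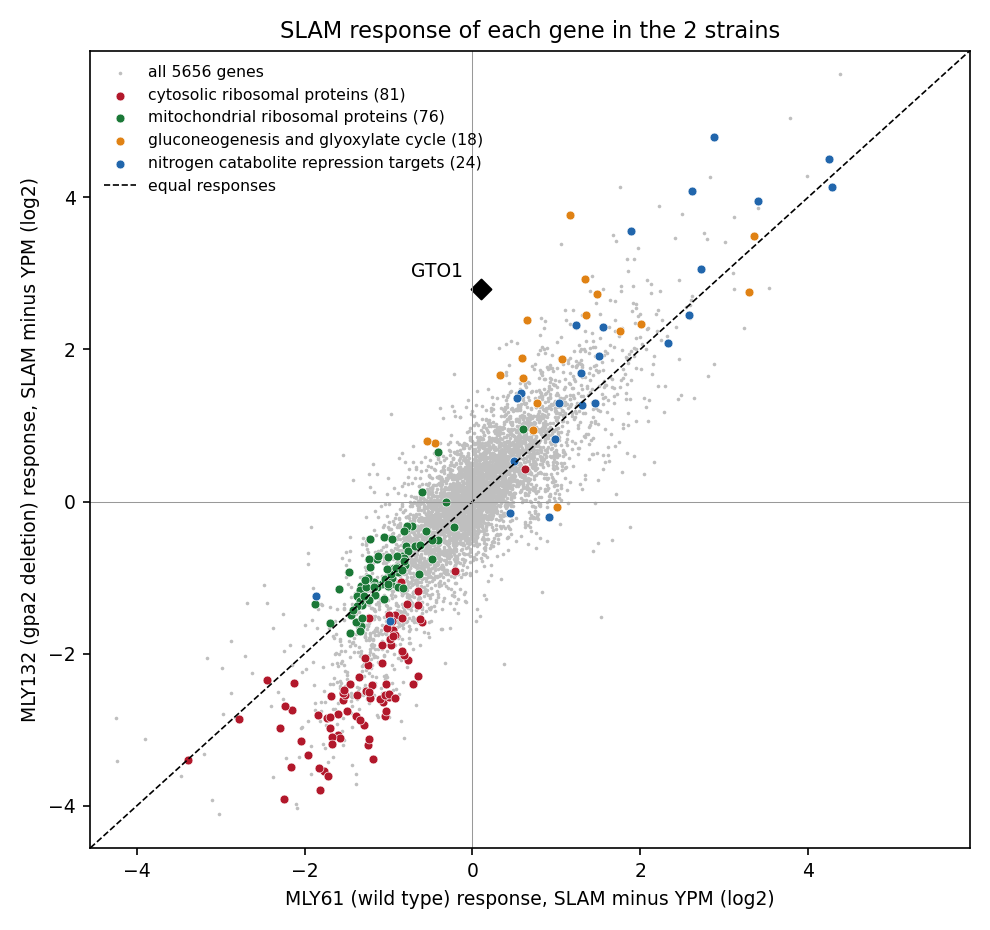
SLAM response of every gene (SLAM mean minus YPM mean, log2) in MLY132 on the vertical axis and in MLY61 on the horizontal axis, with 4 gene lists coloured and GTO1 marked. Cytosolic ribosomal proteins lie mostly below the dashed line of equal responses, gluconeogenic genes mostly above it, and mitochondrial ribosomal proteins along it.

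GTO1 (YGR154C), an omega-class glutathione transferase, came closest to passing. Its log2 signal was 9.44, 10.00 and 8.78 in MLY132 in SLAM and 6.56, 6.73 and 6.56 in MLY132 in YPM. In MLY61 it was 7.18, 6.45 and 6.74 in SLAM and 6.65, 6.89 and 6.51 in YPM. All 3 MLY132 SLAM arrays were above every other array, and the MLY61 media overlapped. It rose 6.92-fold in MLY132 (log2 2.79, adjusted p = 0.000243), while the MLY61 value was 0.11 (adjusted p = 0.846). The difference was 2.69 ± 0.42 (SE), a 6.43-fold ratio of ratios with a 95% interval from 1.78 to 3.59, and its limma adjusted p was 0.173. Leaving out single arrays gave 2.39 to 3.00, with an adjusted p of 0.0226 without MLY132 SLAM replicate 3, and quantile normalization gave 2.65 with an adjusted p of 0.0435. Over all alternatives the limma adjusted p ran from 0.00382 to 0.834. The lowest value came from array weights, where the iteration for the weights did not converge.

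The next gene, DPI8 (YJL133C-A), had an adjusted p of 0.980, and every other gene had that value or more. DPI8 read 10.70, 10.64 and 11.08 in MLY132 in SLAM and 11.21, 11.56 and 11.31 in MLY132 in YPM. It read 12.51, 12.02 and 13.10 in MLY61 in SLAM and 11.47, 10.31 and 11.35 in MLY61 in YPM. It rose in MLY61 (log2 1.50, adjusted p = 0.0188), and the MLY132 value was -0.55 (adjusted p = 0.245). The SLAM arrays of the strains, each taken from its own YPM mean, did not overlap, which was so for 282 genes (4.99%) with MLY132 lower and 495 (8.75%) with MLY132 higher. The difference was -2.05 (95% interval -3.09 to -1.02).

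Among the 20 genes with the smallest unadjusted p, a set chosen after the values were seen, 5 had positive and 15 negative differences. Besides GTO1, the positive ones were YDL124W, GIS1, CST6 and ASF2. YDL124W, an NADPH-dependent reductase, read 11.05, 10.70 and 11.12 in MLY132 in SLAM, 9.40, 10.51 and 9.50 in MLY132 in YPM, 9.82, 8.92 and 8.92 in MLY61 in SLAM, and 9.41, 10.52 and 10.65 in MLY61 in YPM. It rose in MLY132 (log2 1.15, adjusted p = 0.0453), the MLY61 value was -0.97 (adjusted p = 0.115), and the difference was 2.12 (0.92 to 3.33). GIS1, a transcription factor that acts downstream of the kinase Rim15 when nutrients run short, read 8.40, 8.12 and 8.12 in MLY132 in SLAM and 6.87, 7.29 and 7.16 in MLY132 in YPM. In MLY61 it read 7.20, 7.06 and 6.70 in SLAM and 6.70, 7.39 and 7.31 in YPM, a difference of 1.26 (0.52 to 1.99). CST6, a bZIP transcription factor, had a difference of 1.17 (0.46 to 1.87), and ASF2, named for its effect on silencing, 0.91 (0.34 to 1.48). These 3 regulators rose in MLY132, by log2 1.11, 1.15 and 1.07, with MLY61 values of -0.15, -0.02 and 0.16.

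The genes with negative differences in that set included several of ribosome and protein synthesis, which are taken up below, and several metabolic enzymes. PRO1, the kinase that starts proline synthesis, read 6.81, 6.70 and 6.12 in MLY132 in SLAM and 8.95, 9.10 and 8.70 in MLY132 in YPM. It read 8.06, 8.05 and 7.97 in MLY61 in SLAM and 9.32, 9.05 and 8.79 in MLY61 in YPM. PRO1 fell in both strains, by 2.38 in MLY132 and by 1.03 in MLY61, and the difference was -1.35 (-2.06 to -0.63). INM1, inositol monophosphatase, fell in MLY132 by 1.42, the MLY61 value was -0.22, and the difference was -1.19 (-1.82 to -0.57). FSH1, a serine hydrolase, had a difference of -2.00 (-3.17 to -0.83). YHB1, the flavohemoglobin that detoxifies nitric oxide, had -2.04 (-3.14 to -0.94) from a shared-target probe set, one that may bind other transcripts as well, and its other probe sets gave -2.08, -1.61 and, at a mean signal of 4.11, -0.07. The most negative value of all genes was that of TPO2, a polyamine transporter also read by a shared-target probe set, at -3.05 (-5.04 to -1.05). TPO2 was not called in either strain, with responses of -1.52 in MLY132 and 1.53 in MLY61.

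**Figure D3:**
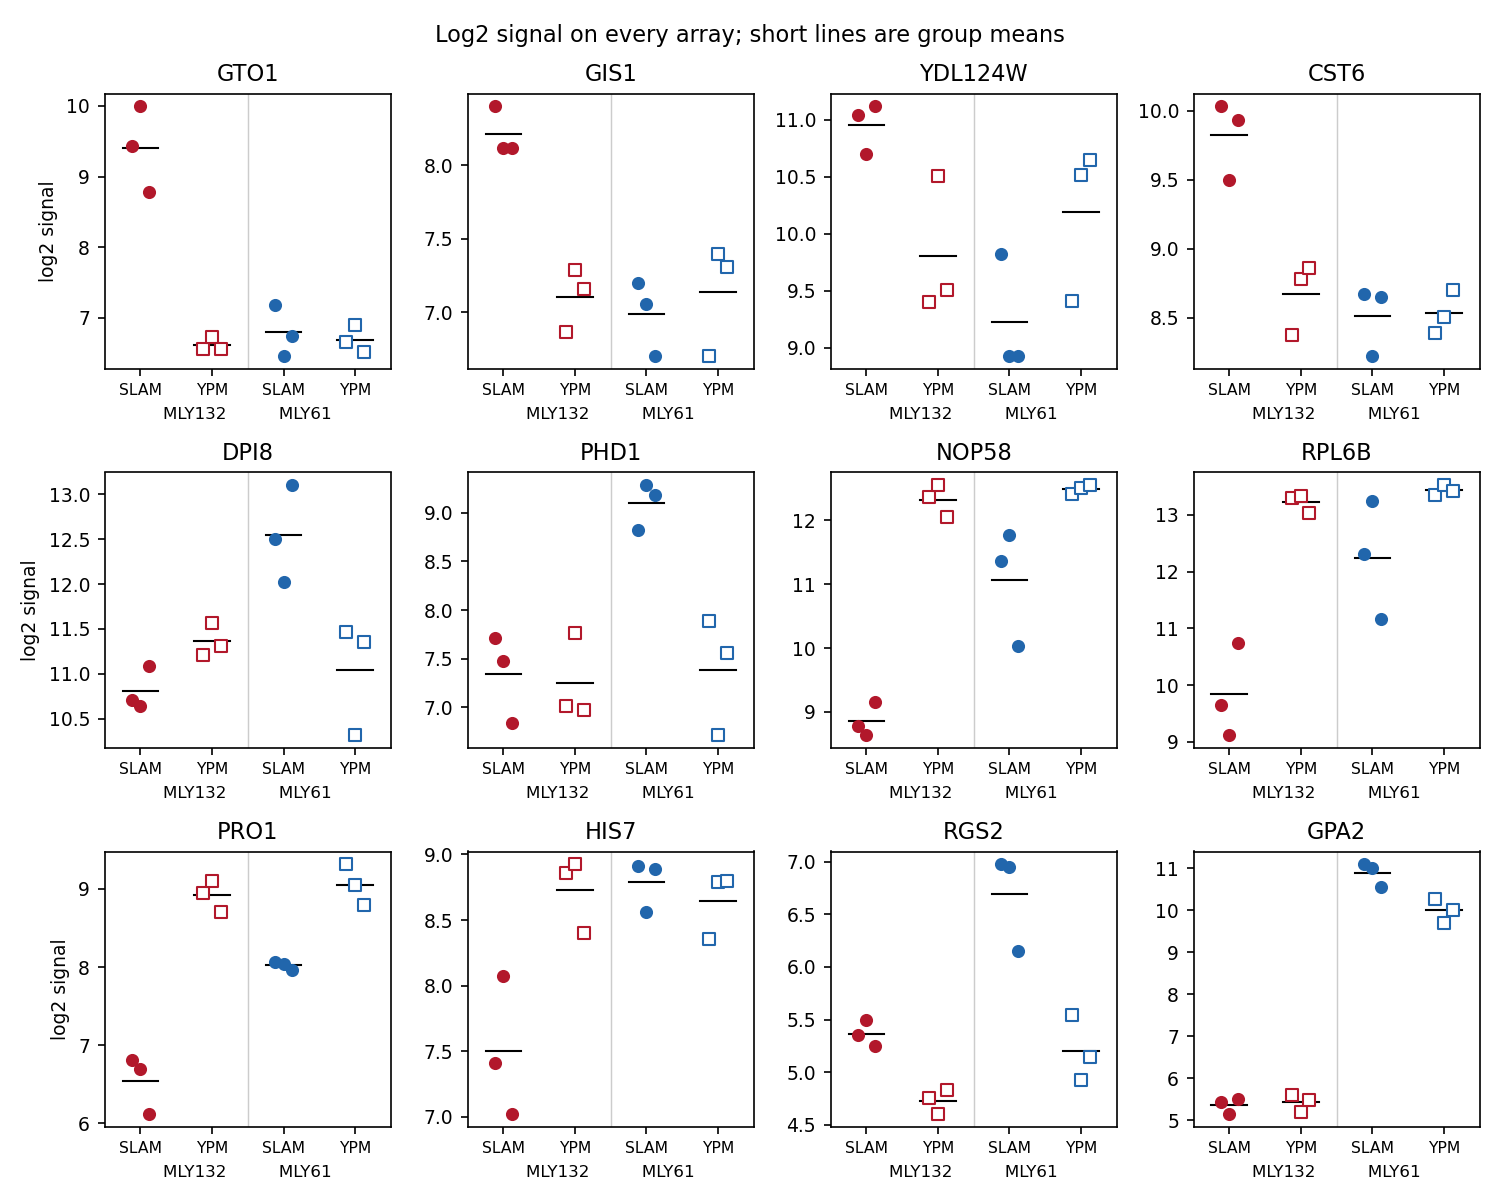
Log2 signal of 12 genes on every array, with MLY132 (red) left of MLY61 (blue), SLAM (filled circles) left of YPM (open squares) and group means as short lines; each panel has its own vertical scale. GTO1 is high on the 3 MLY132 SLAM arrays only, at 8.78 to 10.00, while NOP58 and RPL6B are lowest on the MLY132 SLAM arrays.

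Many cytosolic ribosomal protein genes fell, and their responses were mostly more negative in MLY132. Of 81 measured, 79 fell and 0 rose in MLY132, and 38 fell and 0 rose in MLY61. The median response was -2.54 in MLY132 and -1.23 in MLY61. Differences lay below 0 in 80 of the 81, where 46% of all genes did, with a median of -1.12 beside 0.04 over all genes. An unadjusted p below 0.05 with a negative difference was seen for 32 (39.5%), beside 2.3% of all genes, and 0 passed after adjustment. The strains stood closer in YPM, with a median MLY132 minus MLY61 level of -0.24, than in SLAM, where it was -1.47. Ribosomal protein genes move together, so the 81 values are far from independent, and 30 of them come from shared-target probe sets. As in any bulk extract, less of these transcripts per cell and fewer cells holding them cannot be told apart.

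By array, the mean of the list stood at -2.79, -2.91 and -1.59 from the YPM mean in MLY132 SLAM replicates 1, 2 and 3, and at -1.18, -0.87 and -1.92 in those of MLY61. MLY132 replicate 3 was above MLY61 replicate 3, so the strains overlapped. The mean difference was -1.11 ± 0.56 (SE over arrays). The median difference ran from -1.62 without MLY132 SLAM replicate 3 to -0.89 without MLY132 SLAM replicate 2. Without MLY61 SLAM replicate 2 it was -0.91, and the count of 32 became 15.

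The members with the smallest p were RPL27A, RPL6B, RPS21A and RPS0B, of the large and small subunits. RPL6B read 9.65, 9.12 and 10.74 in MLY132 in SLAM and 13.30, 13.34 and 13.03 in MLY132 in YPM. It read 12.31, 13.24 and 11.17 in MLY61 in SLAM and 13.34, 13.53 and 13.42 in MLY61 in YPM. The MLY132 SLAM arrays were the 3 lowest, and the MLY61 SLAM arrays ranged over more than 2 log2 units. RPL6B fell 10.5-fold in MLY132 (adjusted p = 0.000754), the MLY61 value was -1.19 (adjusted p = 0.110), and the difference was -2.20 (-3.65 to -0.74). RPS0B had a difference of -1.89 (-3.21 to -0.57). RPL27A at -1.89 (-3.11 to -0.66) and RPS21A at -1.14 (-1.92 to -0.35) were read by shared-target probe sets.

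Genes that build ribosomes had mostly negative differences as well. Of 59 proteins of the small subunit processome and the snoRNPs, which process and modify pre-rRNA in the nucleolus, 56 fell in MLY132 and 29 in MLY61, with median responses of -1.92 in MLY132 and -1.23 in MLY61. The median difference was -0.77, 56 lay below 0, 14 (23.7%) had an unadjusted p below 0.05 (2.3% of all genes, lower), and in 17 the MLY132 SLAM arrays were all lower (4.99% of all genes). These members share the same arrays, and the list means overlapped. MLY132 SLAM replicate 3 stood at -1.69 from its YPM mean and MLY61 SLAM replicate 3 at -1.79. NOP58, a core protein of box C/D snoRNPs, read 8.78, 8.63 and 9.16 in MLY132 in SLAM and 12.36, 12.55 and 12.05 in MLY132 in YPM. It read 11.36, 11.78 and 10.04 in MLY61 in SLAM and 12.42, 12.50 and 12.55 in MLY61 in YPM. NOP58 fell 11.0-fold in MLY132 and 2.70-fold in MLY61, and the difference was -2.03 (-3.15 to -0.91) from a shared-target probe set. Its 3 other probe sets gave -1.98, -1.89 and, at a mean signal of 5.21, -0.77. Differences of -1.53 (-2.52 to -0.54) for RRP5, a pre-rRNA processing factor, -1.50 (-2.41 to -0.59) for GAR1 of the box H/ACA snoRNPs and -1.23 (-1.95 to -0.51) for the rRNA dimethylase DIM1 also stood among the smallest p. NOP1, the snoRNP methyltransferase, had -1.93 (-3.45 to -0.41), and both NOP1 (-2.69) and NOP58 (-2.54) passed at an adjusted p of 0.0363 without MLY61 SLAM replicate 3.

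For 65 assembly factors of the large subunit, 58 fell in MLY132 and 28 in MLY61, and the median difference was -0.76, with 61 below 0 and 10 (15.4%) at an unadjusted p below 0.05, beside the same 2.3%. NSA2 had -2.29 (-4.08 to -0.51), the GTPase gene NOG1 -1.66 (-2.97 to -0.35), EBP2 -1.69 (-3.15 to -0.23) and BRX1 -1.48 (-2.54 to -0.43). Leaving out MLY61 SLAM replicate 1 brought the median to -0.49 for the processome list and to -0.52 for the assembly factors, and leaving out MLY61 SLAM replicate 3 to -1.14 and -1.07. Of 11 genes of RNA polymerase I and its initiation factors, 7 fell in MLY132 and 5 in MLY61. The median difference was -1.06, with 8 below 0 and 3 above it, up to 0.87. The subunit genes with the smallest p were RPA135 at -1.53 (-2.65 to -0.42), RPA49 at -1.70 (-3.06 to -0.33), RPA12 at -1.47 (-2.75 to -0.19) and RPA190 at -1.21 (-2.28 to -0.13). RPA190 had 6 further probe sets, all negative, from -1.76 to -0.35. Without MLY61 SLAM replicate 2 the RNA polymerase I median was -0.66, and without MLY61 SLAM replicate 3 it was -1.50.

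RNA polymerase III subunits, which make tRNA and 5S rRNA, fell in 11 of 12 cases in MLY132 and in 2 in MLY61. Of all genes, 14.8% fell in MLY132 and 7.34% in MLY61. The median difference of the subunits was -0.64, with 11 below 0, and RPC25 had -0.96 (-1.82 to -0.10). On the SLAM arrays the list stood at -1.21, -1.33 and -1.30 from the YPM mean in MLY132 and at -0.44, -0.68 and -1.07 in MLY61, without overlap. Its mean difference was -0.55 ± 0.28 (SE over arrays). The means of the other lists of ribosome building and translation, synthetases and translation factors included, overlapped between the strains. Aminoacyl-tRNA synthetases fell in 16 of 18 cases in MLY132 and in 6 in MLY61, with a median difference of -0.63 that shrank to -0.24 without MLY61 SLAM replicate 2. FRS1, a phenylalanyl-tRNA synthetase subunit, had -1.55 (-2.60 to -0.50), the tryptophanyl enzyme WRS1 -1.29 (-2.38 to -0.21) and the methionyl enzyme MES1 -0.88 (-1.69 to -0.07). Of 30 translation factors, 22 fell and 1 rose in MLY132 and 9 fell in MLY61, and the median difference was -0.59, or -0.33 without MLY61 SLAM replicate 2. YEF3, elongation factor 3, read 11.66, 11.69 and 11.87 in MLY132 in SLAM and 13.00, 13.19 and 12.98 in MLY132 in YPM, against 12.57, 12.24 and 12.58 in MLY61 in SLAM and 12.79, 13.05 and 12.85 in MLY61 in YPM. The YEF3 difference was -0.88 (-1.46 to -0.30), with the MLY132 SLAM arrays the 3 lowest.

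The median difference of mitochondrial ribosomal protein genes was near 0. Of 76, 42 fell and 1 rose in MLY132 and 35 fell in MLY61, with median responses of -0.94 in MLY132 and -1.01 in MLY61 and a median difference of 0.06. MRPL38, with a difference of 0.74 (-0.25 to 1.72), and MRP51, with 0.58 (-0.21 to 1.38), had intervals that included 0. The 1 member with an unadjusted p below 0.05 was VAR1, encoded in mitochondrial DNA, and all 4 of its group means were under the background reading. Across the SLAM arrays the list overlapped between strains, at -0.80, -0.70 and -1.17 in MLY132 and -1.16, -0.55 and -1.30 in MLY61. This median turned to -0.11 without MLY132 YPM replicate 1, was 0.34 without MLY61 SLAM replicate 2 and reached 0.56 without that array and MLY132 YPM replicate 3, where 17 members (22.4%) had an unadjusted p below 0.05 and a positive difference, beside 4.24% of all genes.

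**Figure D4:**
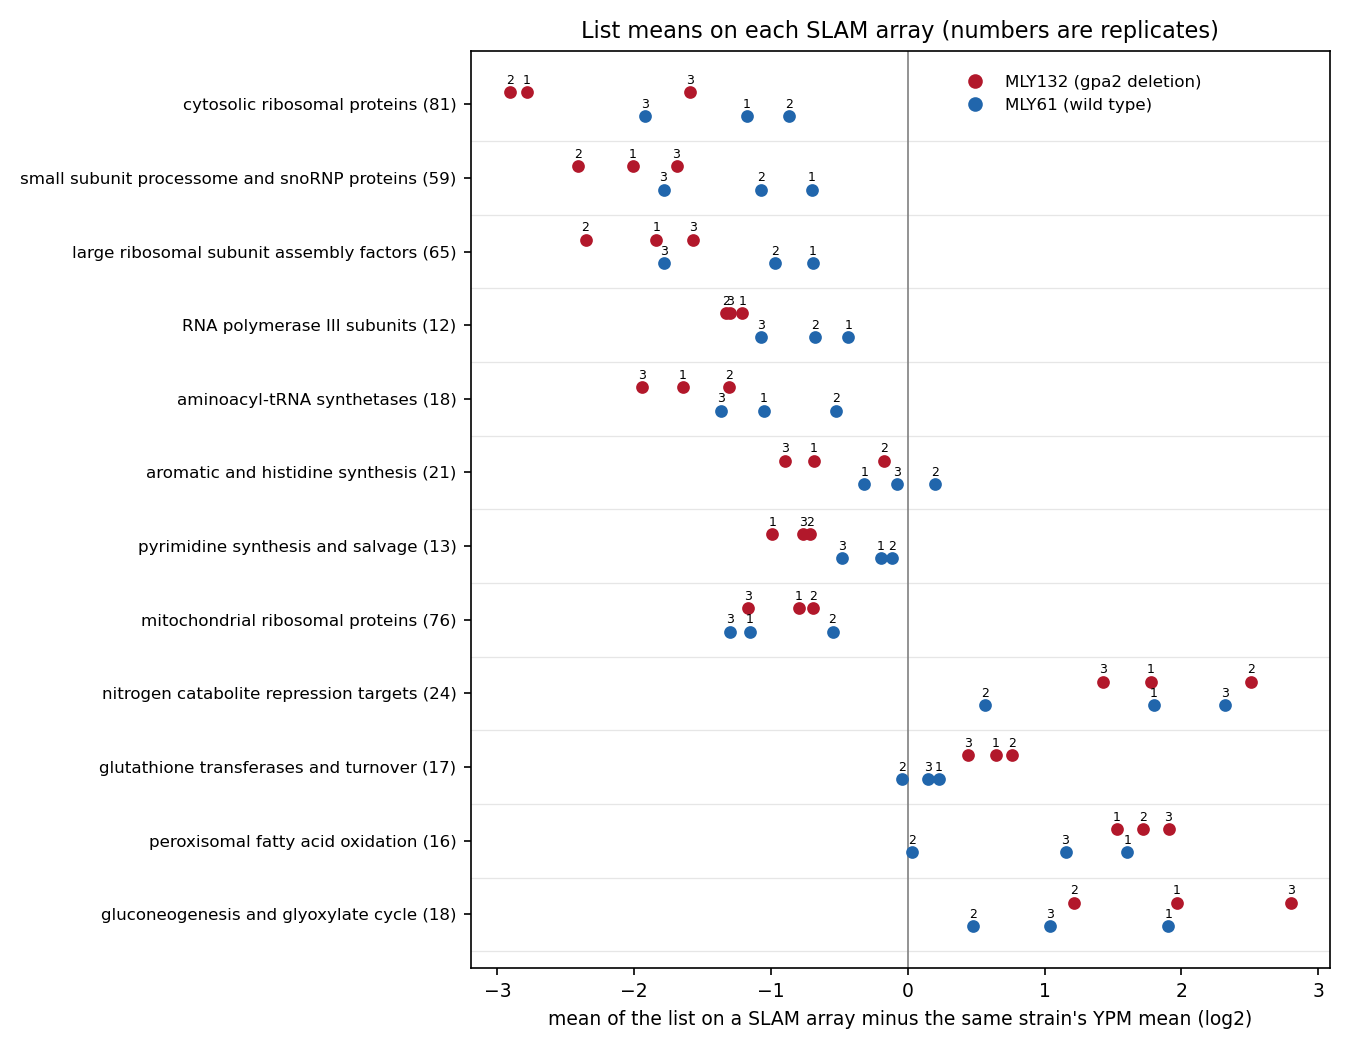
Mean of 12 gene lists on each SLAM array, as log2 distance from the YPM mean of the same strain, with MLY132 (red) above MLY61 (blue) and replicate numbers beside the points. Ribosomal protein means were -2.91 to -1.59 in MLY132 and -1.92 to -0.87 in MLY61, so they overlap, while glutathione genes at 0.44 to 0.76 in MLY132 and -0.04 to 0.23 in MLY61 do not.

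Many nitrogen scavenging genes rose, and the sign of their median difference depended on 1 array. Of 24 targets of nitrogen catabolite repression, the system that shuts off use of poor nitrogen sources, 15 rose and 1 fell in MLY132 and 11 rose and 1 fell in MLY61. The median difference was 0.30, with 0 genes at an unadjusted p below 0.05. It was -0.16 without MLY61 SLAM replicate 2, whose list mean was 0.57 above the YPM mean against 1.80 and 2.32 for the other MLY61 arrays and 1.77, 2.51 and 1.43 in MLY132. UGA4, the GABA permease, read 9.72, 10.94 and 10.11 in MLY132 in SLAM and 6.90, 6.36 and 6.84 in MLY132 in YPM, against 9.11, 6.72 and 9.27 in MLY61 in SLAM and 6.41, 6.46 and 6.57 in MLY61 in YPM. MLY61 SLAM replicate 2 stood near the YPM arrays and the other 5 SLAM arrays well above them. The difference was 1.67 (-0.02 to 3.36) for UGA4, whose other probe sets gave 0.94 and 0.75. It was 0.83 (-0.18 to 1.83) for the GABA transaminase gene UGA1, and 1.46 (-0.65 to 3.58) for the allantoin permease gene DAL4. GLN1, glutamine synthetase, stood on the other side at -1.11 (-2.57 to 0.36).

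Arginine, aromatic and histidine synthesis genes had mostly negative differences, while 8 of 12 branched-chain genes (median 0.19) and 5 of 9 lysine genes (median 0.03) lay above 0. All 8 arginine synthesis genes lay below 0, with a median of -0.45. 3 of them rose in MLY132 and 5 in MLY61. ARG4, argininosuccinate lyase, read 11.13, 11.11 and 10.84 in MLY132 in SLAM and 9.60, 9.74 and 9.17 in MLY132 in YPM, and 11.27, 11.70 and 11.76 in MLY61 in SLAM and 10.55, 8.55 and 8.98 in MLY61 in YPM. ARG4 rose in both strains and its difference was -0.69 (-1.95 to 0.57), while the one at an unadjusted p below 0.05, the ornithine pathway gene ARG8, had -0.89 (-1.69 to -0.09). The list median was -0.28 without MLY132 YPM replicate 2 and -0.79 without MLY61 SLAM replicate 2 and MLY132 YPM replicate 3.

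Of 21 aromatic and histidine synthesis genes, 7 fell and 0 rose in MLY132, and 1 fell and 0 rose in MLY61. The median difference was -0.53, 18 were below 0, 4 (19.0%) had an unadjusted p below 0.05 and a negative difference, and in 8 the MLY132 SLAM arrays were all lower, beside 2.3% and 4.99% of all genes. The list means overlapped, at -0.69, -0.18 and -0.90 from the YPM mean in MLY132 SLAM and -0.32, 0.20 and -0.08 in MLY61 SLAM. HIS7, an enzyme of the histidine pathway, read 7.41, 8.07 and 7.02 in MLY132 in SLAM and 8.86, 8.93 and 8.40 in MLY132 in YPM. In MLY61 it read 8.91, 8.56 and 8.89 in SLAM and 8.36, 8.79 and 8.80 in YPM, so its MLY132 SLAM arrays were the 3 lowest and the MLY61 media overlapped. HIS7 fell in MLY132 (log2 -1.23, adjusted p = 0.00655), the MLY61 value was 0.14, and the difference was -1.37 (-2.22 to -0.51). ARO7, chorismate mutase, had -1.48 (-2.66 to -0.29), HIS4 -1.34 (-2.67 to -0.02) and ARO4, the DAHP synthase that opens the aromatic pathway, -0.95 (-1.84 to -0.07). The list median was -0.32 without MLY132 SLAM replicate 3 and -0.35 without MLY61 SLAM replicate 2.

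Nucleotide synthesis genes also had mostly negative differences. In purine synthesis, 11 of 15 fell and 1 rose in MLY132, and 5 fell and 0 rose in MLY61, with a median difference of -0.53. The purine list mean on the SLAM arrays stood at -1.77, -1.34 and -1.53 from the YPM mean in MLY132. It stood at -0.84, -0.89 and -1.11 in MLY61, without overlap. GUA1, GMP synthase, read 8.60, 8.07 and 8.87 in MLY132 in SLAM and 11.14, 11.27 and 10.77 in MLY132 in YPM, and 10.23, 11.15 and 9.75 in MLY61 in SLAM and 11.40, 11.45 and 11.20 in MLY61 in YPM. The GUA1 difference was -1.58 (-2.59 to -0.56), and that of IMD3, an IMP dehydrogenase read by a shared-target probe set, was -1.25 (-2.31 to -0.19). ADE3 and ADE2 had -1.24 (-2.81 to 0.33) and -0.86 (-1.98 to 0.26). Without MLY61 YPM replicate 3 the list median was -0.30, and without MLY61 YPM replicate 1 it was -0.81.

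In pyrimidine synthesis and salvage, 6 of 13 fell and 2 rose in MLY132, and 2 fell and 2 rose in MLY61. Of all genes, 14.8% fell and 13.4% rose in MLY132, and 7.34% fell and 5.23% rose in MLY61. The median difference of the list was -0.58 and stayed between -0.75 and -0.48 with single arrays left out. By array the list stood at -0.99, -0.72 and -0.77 from the YPM mean in MLY132 SLAM and at -0.20, -0.11 and -0.48 in MLY61 SLAM, without overlap. FUR1, which salvages uracil, had a difference of -1.42 (-2.53 to -0.30), the CTP synthase gene URA7 -1.19 (-2.22 to -0.16), URA6 -0.89 (-1.89 to 0.11) and the uracil permease gene FUR4 -0.72 (-1.56 to 0.12). URA3, which is mutant in both strains, was under the background reading in all 4 groups, with a difference of -0.04 (-0.71 to 0.62).

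Genes that make sugar from non-sugar carbon, burn fatty acids and respire had mostly positive differences, with wide spread between arrays. The mean difference was 0.85 ± 0.78 (SE over arrays) for gluconeogenesis and 0.79 ± 0.57 for fatty acid oxidation. It was 0.33 ± 0.36 for the TCA cycle and 0.40 ± 0.37 for the respiratory chain. Members of a list share the same arrays, so counts of members above 0 are not independent. Of 18 gluconeogenesis and glyoxylate cycle genes, 14 rose in MLY132 and 3 in MLY61, with median responses of 2.07 in MLY132 and 1.04 in MLY61. The median difference was 1.06, and 16 lay above 0 (54% of all genes did). An unadjusted p below 0.05 with a positive difference was seen for 2 (11.1%), beside 1.73% of all genes. That count was 1 of 16 for fatty acid oxidation, 0 of 16 for the TCA cycle and 1 of 34 for the respiratory chain. CAT8, an activator of gluconeogenic genes, read 8.15, 8.03 and 8.59 in MLY132 in SLAM, 6.27, 6.30 and 7.20 in MLY132 in YPM, 7.47, 5.97 and 6.48 in MLY61 in SLAM and 6.08, 6.52 and 6.34 in MLY61 in YPM. CAT8 rose 3.18-fold in MLY132 (adjusted p = 0.00579), the MLY61 value was 0.33 (adjusted p = 0.582), and the difference was 1.34 (0.21 to 2.47). ADR1, a further activator of such genes, had 1.21 (0.17 to 2.25), and the cytosolic isocitrate dehydrogenase gene IDP2 had 2.60 (-0.05 to 5.25). The list mean on the SLAM arrays was 1.97, 1.21 and 2.80 in MLY132 and 1.90, 0.48 and 1.04 in MLY61, so the strains overlapped. Its median difference was 0.52 without MLY132 SLAM replicate 3 and 0.70 without MLY61 SLAM replicate 2.

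All 16 peroxisomal fatty acid oxidation genes had differences above 0, with a median of 0.67, and 14 rose in MLY132 against 3 in MLY61. FOX2, a multifunctional enzyme of beta-oxidation, read 10.70, 10.62 and 11.34 in MLY132 in SLAM and 8.22, 8.22 and 8.98 in MLY132 in YPM, against 9.74, 7.29 and 9.46 in MLY61 in SLAM and 7.74, 8.34 and 7.96 in MLY61 in YPM. In MLY61, replicate 2 lay below its YPM arrays and the other 2 SLAM arrays above them. The FOX2 difference was 1.59 (-0.01 to 3.20), and that of FAA2, a fatty acyl-CoA synthetase, was 1.15 (0.01 to 2.28). The peroxisomal transporter genes PXA1 and PXA2 had 1.43 (-0.04 to 2.91) and 1.19 (-0.17 to 2.55). The list mean was 0.03 in MLY61 SLAM replicate 2, against 1.60 and 1.15 in the other MLY61 arrays and 1.53, 1.72 and 1.91 in MLY132, and the median difference without that replicate was 0.26.

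In the TCA cycle, all 16 genes had differences above 0 (median 0.34), with 5 rising in MLY132 and 0 in MLY61. The TCA list mean on the SLAM arrays was 0.69, 0.74 and 0.35 in MLY132 and 0.26, 0.25 and 0.27 in MLY61, without overlap. For the respiratory chain and ATP synthase, 33 of 34 lay above 0 (median 0.34), with 3 rising in MLY132 and 0 in MLY61, shares below the 13.4% and 5.23% of all genes that rose. NDE1, an external NADH dehydrogenase, had a difference of 0.94 (0.09 to 1.78), QCR9 of complex III 0.71 (-0.20 to 1.61), the aconitase gene ACO1 0.65 (-0.24 to 1.55) and the dihydrolipoamide dehydrogenase gene LPD1 0.61 (-0.21 to 1.42). Both medians moved with the MLY132 YPM arrays. They were 0.08 and 0.15 without MLY132 YPM replicate 1, whose list means stood at -0.46 and -0.41 from the group mean, and 0.65 and 0.57 without replicate 3, at 0.57 and 0.53.

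Stress, reserve and autophagy genes had median differences between 0.21 and 0.47, apart from heat shock chaperones (median -0.07, 11 of 19 below 0) and vacuolar proteases (0.15). Of 26 general stress response genes, 14 rose in MLY132 and 10 in MLY61, with a median response of 1.17 in each strain and a median difference of 0.27, or -0.20 without MLY61 SLAM replicate 2. XBP1, a stress-induced repressor, had 0.90 (-0.22 to 2.02), and the stress gene DDR2, which rose in both strains, had -0.84 (-1.87 to 0.18). All 7 trehalose genes lay above 0 with a median of 0.47, and 6 rose in MLY132 against 2 in MLY61. TPS2, trehalose phosphatase, read 12.98, 12.59 and 12.30 in MLY132 in SLAM, 10.70, 11.69 and 11.67 in MLY132 in YPM, 11.59, 9.62 and 11.16 in MLY61 in SLAM and 10.93, 10.62 and 10.70 in MLY61 in YPM, a difference of 1.23 (-0.13 to 2.59). TSL1, a regulatory subunit of the same complex, had 0.47 (-0.13 to 1.07). Without MLY61 SLAM replicate 2 the trehalose median was 0.27. The trehalose list mean on the SLAM arrays was 1.25, 1.02 and 0.93 in MLY132 and 0.88, 0.14 and 0.69 in MLY61, without overlap.

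Glycogen genes lay above 0 in 12 of 13 cases (54% of all genes). Of them, 6 rose in MLY132 and 1 in MLY61, beside 13.4% and 5.23% of all genes. Their median of 0.21 was 0.02 without MLY61 SLAM replicate 2. GSY1, a glycogen synthase, had 0.83 (-0.08 to 1.73), and GLG1 and GLG2, which prime glycogen chains, had 0.83 (-0.08 to 1.73) and 1.55 (-0.33 to 3.43). Of 36 autophagy genes, 26 rose in MLY132 and 14 in MLY61, with a median difference of 0.28 that became 0.09 without that array. ATG5, of the conjugation system that extends the autophagosome, had 0.73 (0.09 to 1.36), and ATG14, a subunit of the autophagy lipid kinase complex, 1.36 (-0.05 to 2.76). The protease gene ATG4 had 0.61 (0.05 to 1.17), with 3 of its 4 group means under the background reading.

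The median difference of glutathione genes stayed positive with each array left out, and that of iron genes changed sign. Of 17 glutathione transferase and turnover genes, 6 rose in MLY132 and 1 in MLY61, beside 13.4% and 5.23% of all genes. The MLY61 count is near that share. Differences lay above 0 in 14 (54% of all genes), and the median was 0.48, from 0.33 to 0.55 with single arrays left out. By array the list lay 0.64, 0.76 and 0.44 above the YPM mean in MLY132 SLAM, against 0.23, -0.04 and 0.15 in MLY61 SLAM, without overlap. Among the lists above, those of RNA polymerase III, purines, pyrimidines, trehalose and the TCA cycle did not overlap either. After GTO1 came GTT1, a glutathione transferase, with 0.54 (-0.10 to 1.17), and the glutaredoxin gene GRX2, with 0.53 (-0.16 to 1.22). GTO3, a further omega-class transferase, had 1.60 (-0.42 to 3.62), and its MLY132 YPM readings of 7.73, 7.48 and 4.97 spanned almost the whole range of its values.

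Of 24 iron uptake and retention genes, 5 fell in each strain and the median difference was 0.41. It was -0.57 without MLY132 YPM replicate 3, which stood low in this list. CCC2, the copper transporter that serves the iron oxidase, had 1.13 (-0.09 to 2.35), and FET4, the low-affinity iron transporter, read 9.74, 9.19 and 5.94 in MLY132 in YPM and had -1.65 (-4.06 to 0.77). Of 25 sulfate assimilation and methionine genes, 10 rose in MLY132 and 4 in MLY61, with a median difference of 0.04. MLY132 SLAM replicate 2 and MLY61 SLAM replicate 2 stood high in this list, with means of 2.59 and 2.25 against -0.04 to 1.06 on the other 4 SLAM arrays. Their common replicate number does not link them. The median was -0.68 without the MLY132 array and 0.67 without the MLY61 array. MET13, a methylenetetrahydrofolate reductase that rose in both strains by 3.45 in MLY132 and 2.79 in MLY61, had 0.66 (-0.07 to 1.39), and MET6, methionine synthase, 0.63 (-0.82 to 2.08).

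In the receptor module of Gpa2, 4 of 7 genes lay below 0 and 3 above, with a median difference of -0.28. GPA2, RGS2 and ASC1 had negative differences at an unadjusted p below 0.05 (2.3% of all genes). That count includes the deleted gene, so it is no result about the module. GPA2 itself rose in MLY61 (log2 0.89, adjusted p = 0.0302) and is deleted in MLY132, where it reads background, so its difference of -0.97 (-1.67 to -0.26) is no measure of a response in that strain. RGS2, which switches Gpa2 off, read 5.35, 5.49 and 5.25 in MLY132 in SLAM and 4.76, 4.60 and 4.83 in MLY132 in YPM. It read 6.98, 6.95 and 6.15 in MLY61 in SLAM and 5.55, 4.92 and 5.14 in MLY61 in YPM. Only the MLY61 SLAM arrays exceeded the background reading, and RGS2 rose in MLY61 (log2 1.49, adjusted p = 0.00785), with an MLY132 value of 0.64 and a difference of -0.85 (-1.63 to -0.07). ASC1, a ribosome-bound protein that also serves as G beta partner of Gpa2, fell in both strains, by 3.16 in MLY132 and by 2.04 in MLY61, a difference of -1.11 (-2.22 to -0.01) close to the median of the ribosomal protein list, to which it also belongs. PLC1, phospholipase C, had 0.44 (-0.28 to 1.16).

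Further along the pathway, 7 of 20 cAMP and protein kinase A genes rose and 1 fell in MLY132, and 5 rose and 1 fell in MLY61. Of all genes, 13.4% rose and 14.8% fell in MLY132, and 5.23% rose and 7.34% fell in MLY61. The median difference of the list was 0.18. BCY1, the inhibitory subunit of the kinase, read 11.64, 11.26 and 11.63 in MLY132 in SLAM and 10.64, 10.52 and 10.89 in MLY132 in YPM, and 10.85, 10.53 and 10.56 in MLY61 in SLAM and 10.52, 10.26 and 10.46 in MLY61 in YPM. It rose in MLY132 (log2 0.82), where all 3 SLAM arrays were above every other array, and its difference was 0.58 (-0.04 to 1.20). PDE2, the high-affinity cAMP phosphodiesterase, had -0.79 (-1.60 to 0.02), and SOK1, found as a suppressor of kinase A loss, 1.44 (0.26 to 2.61). SDC25, a Ras exchange factor, had 0.80 (0.05 to 1.56) with 3 group means under the background reading.

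Among 25 filamentous growth genes, 1 rose and 1 fell in each strain. Of all genes, 13.4% rose and 14.8% fell in MLY132, and 5.23% rose and 7.34% fell in MLY61. The counts of the list were below those shares in MLY132 and near them in MLY61. The median difference of the list was 0.02, within -0.09 and 0.13 with single arrays left out. PHD1, a transcription factor that promotes pseudohyphal growth when overproduced, read 7.71, 7.48 and 6.84 in MLY132 in SLAM and 7.01, 7.76 and 6.98 in MLY132 in YPM. It read 8.82, 9.28 and 9.18 in MLY61 in SLAM and 7.89, 6.71 and 7.56 in MLY61 in YPM. The 3 MLY61 SLAM arrays were above every other array, and the MLY132 media overlapped. PHD1 rose 3.27-fold in MLY61 (log2 1.71, adjusted p = 0.0135), the MLY132 value was 0.09 (adjusted p = 0.868), and the difference was -1.62 (-2.67 to -0.57). MSS11, an activator of FLO11, had 0.78 (0.04 to 1.53), the MAP kinase kinase gene STE7 0.72 (-0.32 to 1.76) and the transcription factor gene MGA1 0.69 (-0.33 to 1.70). FLO11, the flocculin of filamentous growth, was already high in YPM. It read 13.45, 13.65 and 12.75 in MLY132 in SLAM, 13.26, 13.29 and 12.66 in MLY132 in YPM, 13.46, 13.11 and 13.52 in MLY61 in SLAM and 13.21, 12.96 and 13.01 in MLY61 in YPM, all groups overlapping, with a difference of -0.09 (-0.91 to 0.73).

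**Figure D5:**
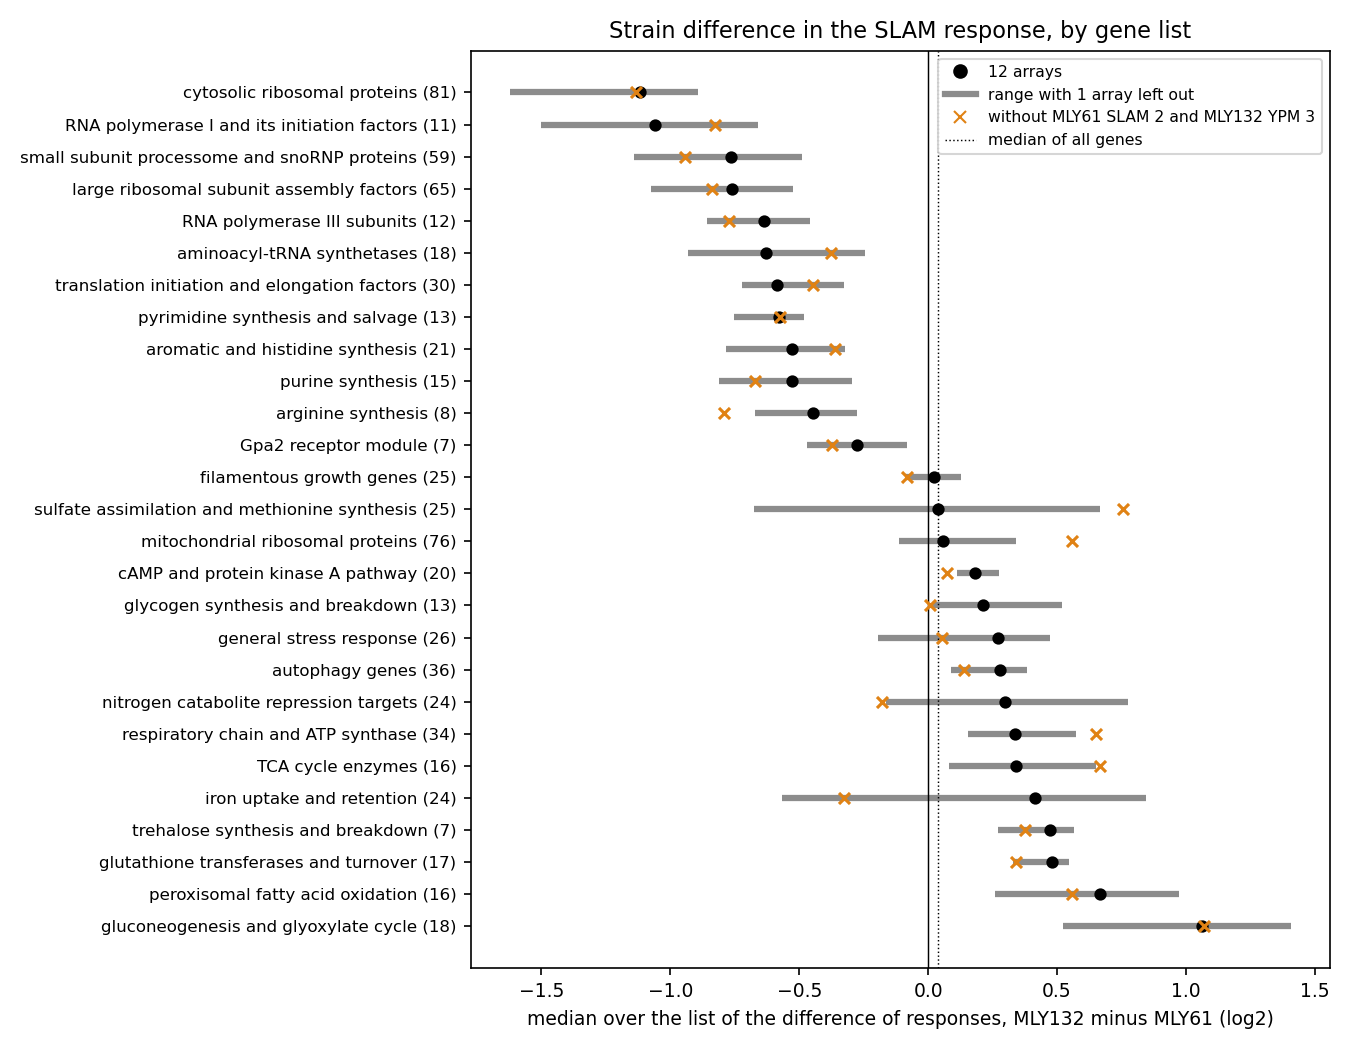
Median over each of 27 gene lists of the difference of responses (MLY132 minus MLY61, log2, black points), with the range when single arrays are left out (grey bars). Orange crosses give the value without MLY61 SLAM replicate 2 and MLY132 YPM replicate 3. Medians run from -1.12 for cytosolic ribosomal proteins to 1.06 for gluconeogenesis; grey bars cross 0 for mitochondrial ribosomal proteins, sulfate, iron, nitrogen, stress and filamentous growth genes.

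The other 22 lists, with 308 genes between them, had medians from -0.22 for cyclins to 0.49 for daughter cell separation, and 11 of their genes (3.57%) had an unadjusted p below 0.05, beside 4.03% of all genes. One of those was GDH1, the ammonium-assimilating glutamate dehydrogenase, named after its values were seen. GDH1 read 9.74, 11.13 and 8.92 in MLY132 in SLAM and 12.25, 12.21 and 11.70 in MLY132 in YPM, against 11.35, 12.06 and 11.77 in MLY61 in SLAM and 12.19, 12.02 and 11.97 in MLY61 in YPM. It fell in MLY132 (log2 -2.12, adjusted p = 0.00416), the MLY61 value was -0.33 (adjusted p = 0.647), and the difference was -1.79 (-3.13 to -0.45).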

How the data were processed

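RNA from 12 yeast cultures was amplified from a poly-T primer, labelled with biotin and hybridised to Affymetrix Yeast S98 arrays, per the labels' protocols. The deposited values are log2 expression signals for 9335 probe sets, and array medians lay between 7.33 and 7.50. GCOS 1.2, MAS5 and RMA appear in the submitters' processing notes with no role for each, and detection calls were not used here. The log2 signals were used as deposited, without raw probe intensities. The number of arrays, 3 per group, limits the precision. Control probe sets (60) and those with several symbols (328) or none (2443) were dropped, and for 315 genes with more than 1 probe set the brightest was kept, which gave 5656 genes, of which 300 are read by shared-target probe sets.

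A model with 1 mean per group was fitted with limma 3.58.1 in R 4.3.3, two-sided p-values were adjusted by Benjamini-Hochberg over all genes, and a gene was called at adjusted p < 0.05. The contrasts were the difference of responses and each strain's response, whose controls are not shared. Intervals are 95%, unadjusted. The fit was tested on simulated data. Genes were named by rule: all called ones (0), GPA2, FLO11, URA3, the genes next to the threshold (none inside, GTO1 and DPI8 outside) and, in each described list, up to 4 members with the smallest p. The 20 genes of smallest p, TPO2, NOP1, AAH1, YMC2 and GDH1 were named after their values were seen. The 49 lists and the comparison were chosen with earlier results of these data known. Alternatives were a floor, quantile normalization, median centring, other choices of probe sets and genes, moderation with a variance trend, array weights, other thresholds and arrays left out. Promoter motifs were not analysed here.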

Additional observations from a re-analysis of the deposited data

Results flagged for a closer look

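In 74 genes (1.31%) every SLAM array of one strain lay on one side of its YPM mean and every SLAM array of the other strain on the opposite side. Of the 20 genes with the smallest unadjusted p, 2 did so, and neither passed limma's test of the difference (adjusted p = 0.980). Those 20 were picked by the size and spread of this same difference, which favours opposite movement, so their share is no result. Neither of the 2 was called in both strains, and 0 genes were called in both strains in opposite directions. DPI8 was lower in SLAM on all 3 MLY132 arrays and higher on all 3 MLY61 arrays, with a difference of -2.05. YDL124W was higher in SLAM on all 3 MLY132 arrays and lower on all 3 MLY61 arrays, with a difference of 2.12.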

How the results depend on the processing

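The difference of responses was called for 0 genes on the 12 arrays and under most alternatives. Quantile normalization called 1 (GTO1), leaving out MLY61 SLAM replicate 2 and MLY132 YPM replicate 3 together called 2 (AAH1 at -3.26 and YMC2 at -2.06), and array weights called 230 (86 above and 144 below 0), where the iteration for the weights did not converge. With single arrays left out the count ran from 0 to 2. The MLY132 count of 1592 ran from 945 to 1955 with single arrays left out, and was 1983 without those 2 arrays, 3323 with array weights and 820 at adjusted p < 0.01. The MLY61 count of 711 ran from 62 to 1414 with single arrays left out, and was 2454 with array weights, 70 at adjusted p < 0.01, 1525 without the 2 arrays named above and 376 from the 6 MLY61 arrays alone. Named genes kept the sign of their difference except for 3. FLO11 (-0.09) ran from -0.42 to 0.17 with 1 or 2 arrays left out. URA3 (-0.04) ran from -0.20 to 0.11 in the same way, and was 0.078 with quantile normalization. MRS4 (0.73) ran from -0.13, without the 2 arrays, to 1.04. The causes were not tested. The median 95% interval reached 0.88 (log2) to either side. No paired analysis was made. The titles give each array its own running number and no number is shared between groups. Within a strain, YPM and SLAM alternate in that order, but whether neighbouring numbers share a culture or day is not stated.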
